A study of Mus musculus with 20 samples.

Results

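The 10 CC chemokines examined were Ccl2, Ccl3, Ccl4, Ccl5, Ccl6, Ccl7, Ccl8, Ccl9, Ccl11 and Ccl19. They were taken by exact gene symbol from a table of 54304 genes in 20 RNA sequencing libraries, and all 10 were present. The cells were PDGFRb+ stromal cells sorted from gonadal white fat after removal of CD45+ blood cells and CD31+ endothelial cells. Fibro-inflammatory progenitors (FIPs) were the LY6C+ fraction, and adipogenic precursors (APCs) were the fraction with neither LY6C nor CD9. The 4 groups of 5 libraries were FIPs labelled transgenic, control FIPs, APCs labelled transgenic and control APCs. Transgenic mice belonged to the Mural-Zfp423 line, whose name points to mural cells, the cells that wrap small vessels, and to the transcription factor Zfp423. The promoter that drives the transgene is not given in the labels. The study asks how perivascular cells bear on macrophages in obese fat. All mice were males of 8 weeks kept at 30 °C, and all, controls included, had eaten a diet with 60% of its energy from fat for 1 month.

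A library pooled the RNA of 2 mice. With 10 mice per genotype, some mice must be in both an FIP and an APC pool, and which ones is not given. Values are log2 CPM (reads scaled to library size), and a value of 0 stands for 1 CPM or less, since the table holds nothing below 0. Depth, estimated from the size of the step of 1 read among low values, was 6.6 to 8.5 megareads per library. Stromal markers were high throughout, with 7 of 7 above 0 in all 20 libraries and a summed level of 6277 to 7460 CPM. The summed level of the 6 genes of the FIP gate and interstitial progenitors was 1276 to 1389 CPM in FIPs labelled transgenic and 1376 to 1496 CPM in control FIPs, against 190 to 220 CPM in APCs labelled transgenic and 253 to 301 CPM in control APCs. Zfp423 itself does not check the genotype labels, with 5.47 to 5.58 log2 CPM in FIPs labelled transgenic against 5.3 to 5.63 in control FIPs, and 4.47 to 5.16 in APCs labelled transgenic against 4.72 to 5.21 in control APCs. The groups are therefore called labelled transgenic.

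CC chemokines are small secreted proteins that direct the movement of leukocytes through receptors coupled to G proteins. In obese fat, the ligands of the receptor CCR2 are known for drawing monocytes, which become macrophages, into the tissue. Stromal cells make some members, and macrophages and lymphocytes make others. Atypical receptors bind the same ligands without G protein signalling and remove or retain them.

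Ccl2, Ccl7 and Ccl11 made up most of the CC chemokine RNA in every library. The 10 members together summed to 513 to 586 CPM in FIPs labelled transgenic and 527 to 642 CPM in control FIPs, against 509 to 597 CPM in APCs labelled transgenic and 521 to 584 CPM in control APCs. These ranges overlapped among all 4 groups. Ccl2, Ccl7 and Ccl11 held 81.7 to 93.4% of the sum. Per kilobase of exon, the group medians in FIPs labelled transgenic were 176 CPM for Ccl7, 164 CPM for Ccl2 and 162 CPM for Ccl11, followed by 23.6 CPM for Ccl8. The next were Ccl6 at 10.0 CPM per kilobase and Ccl9 at 9.21, then Ccl4 at 5.42, Ccl19 at 3.31, Ccl3 at 2.34 and Ccl5 at 1.6. Neighbours in this order overlapped in range except Ccl11 with Ccl8, Ccl8 with Ccl6 and Ccl9 with Ccl4. In control APCs the leading order was Ccl11 at 179 CPM per kilobase, Ccl7 at 171 and Ccl2 at 125, with Ccl2 below both others without overlap, and Ccl6 at 18.8 stood above Ccl8 at 14.2 and Ccl9 at 11.6. The least abundant members rested on few reads, at most an estimated 64 for Ccl4, 47 for Ccl19, 37 for Ccl3 and 27 for Ccl5 in a library, against 925 to 1570 for Ccl2. Ccl3 was above 0 in 17 libraries, Ccl4 and Ccl5 in 19 each, and the other 7 members in all 20.

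**Figure D1:**
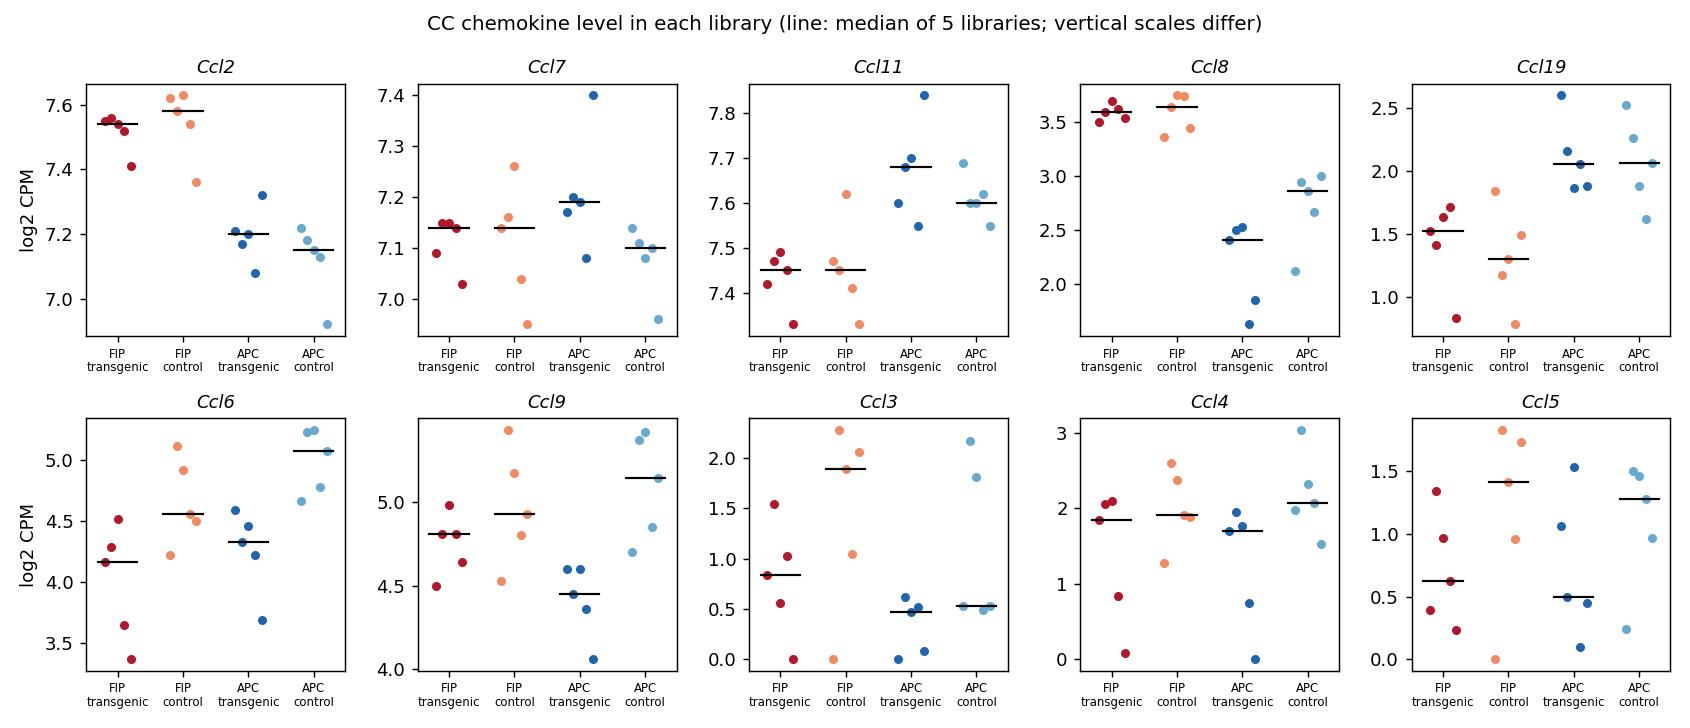
Level of each of the 10 CC chemokines (y axis, log2 CPM) in every library, by group along the x axis, with a vertical scale of its own in each panel; points are libraries and lines mark group medians. Ccl2 and Ccl8 lie higher in FIPs, Ccl19 lies lower in FIPs, and Ccl6 and Ccl9 lie lower in the APCs labelled transgenic than in control APCs.

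FIPs carried more Ccl2 and Ccl8 and less Ccl11 and Ccl19 than APCs, in both genotypes. Of the 10 members, 2 were higher and 2 were lower in control FIPs than in control APCs (limma, Benjamini-Hochberg adjusted p under 0.05), where 19.6% of the 17435 tested genes were higher and 27.9% were lower. The same 4 members passed in the same directions in the mice labelled transgenic, where 22.7% of genes were higher and 19% were lower. The member counts are thus close to the background of this large difference between cell types. The groups did not overlap for 2 of 10 members in control mice, against 31.4% of all tested genes, and for 4 of 10 in mice labelled transgenic, against 29%. The median difference over the members was -0.05 log2 units in control mice, against -0.06 over all tested genes, and 0.07 in mice labelled transgenic, against -0.01. Markers of other cells moved with this comparison too. In control mice 6 of 6 mural, 5 of 5 erythroid and 5 of 6 mesothelial genes were lower in FIPs. So were 5 of 6 endothelial and 4 of 5 mast cell genes. In mice labelled transgenic 3 mural, 3 erythroid, 1 mesothelial, 0 endothelial and 0 mast cell genes were lower. In the other direction, 1 endothelial gene was higher in FIPs in each genotype, and 1 mesothelial and 1 mast cell gene in mice labelled transgenic. The endothelial genes summed to 448 to 574 CPM in control FIPs against 468 to 574 CPM in control APCs. In mice labelled transgenic they summed to 512 to 637 CPM in FIPs against 409 to 516 CPM in APCs. The mural genes summed to 398 to 495 CPM in FIPs labelled transgenic against 681 to 778 CPM in APCs labelled transgenic, and to 369 to 402 CPM in control FIPs against 693 to 933 CPM in control APCs. The part of these cells in the member differences was not tested.

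Ccl2 and Ccl7 are ligands of CCR2, the receptor that brings monocytes out of the blood, and Ccl11, eotaxin, is a ligand of CCR3 on eosinophils. The 3 genes lie next to each other on the forward strand of chromosome 11 in GRCm38. Ccl2 spans 82035571 to 82037453, Ccl7 spans 82045712 to 82047525 and Ccl11 spans 82057823 to 82062955, so that 8.26 kb and then 10.3 kb separate them. Between the cell types Ccl2 was higher in FIPs, Ccl11 was lower, and Ccl7 did not pass.

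Ccl2 had 7.55, 7.56, 7.54, 7.52 and 7.41 log2 CPM in FIPs labelled transgenic, against 7.21, 7.17, 7.2, 7.08 and 7.32 in APCs labelled transgenic. In control mice it had 7.62, 7.58, 7.63, 7.54 and 7.36 log2 CPM in FIPs, against 7.22, 7.18, 7.15, 7.13 and 6.92 in APCs. Every FIP library lay above every APC library of either genotype. The difference was 0.43 log2 units in control mice (SE 0.06, 95% interval 0.31 to 0.55, limma adjusted p = 4.15e-06) and 0.32 in mice labelled transgenic (95% interval 0.20 to 0.44, limma adjusted p = 0.000115), or 1.34-fold and 1.25-fold. Its difference between genotypes was small in both cell types, at -0.03 log2 units in FIPs (95% interval -0.15 to 0.09, limma adjusted p = 0.940) and 0.08 in APCs (95% interval -0.04 to 0.20, limma adjusted p = 0.440).

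Ccl7 had 7.09, 7.15, 7.15, 7.14 and 7.03 log2 CPM in FIPs labelled transgenic, 7.14, 7.16, 7.26, 7.04 and 6.95 in control FIPs, 7.17, 7.2, 7.19, 7.08 and 7.4 in APCs labelled transgenic, and 7.14, 7.11, 7.08, 7.1 and 6.96 in control APCs. All 4 groups overlapped. FIPs differed from APCs by 0.03 log2 units in control mice (95% interval -0.09 to 0.15, limma adjusted p = 0.673) and by -0.10 in mice labelled transgenic (95% interval -0.21 to 0.02, limma adjusted p = 0.186). Between genotypes in APCs the difference was 0.13 log2 units and did not pass (limma adjusted p = 0.152).

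Ccl11 had 7.42, 7.47, 7.49, 7.45 and 7.33 log2 CPM in FIPs labelled transgenic, against 7.6, 7.68, 7.7, 7.55 and 7.84 in APCs labelled transgenic, with no overlap. In control mice it had 7.47, 7.45, 7.62, 7.41 and 7.33 log2 CPM in FIPs, against 7.69, 7.6, 7.6, 7.62 and 7.55 in APCs, and 1 control FIP library lay within the range of the APCs. The FIP minus APC difference was -0.24 log2 units in mice labelled transgenic (95% interval -0.35 to -0.13, limma adjusted p = 0.000791) and -0.16 in control mice (95% interval -0.27 to -0.05, limma adjusted p = 0.0188). The control difference is the smaller of these, and with each library centred on its median gene it was -0.09 and did not pass (limma adjusted p = 0.35, range 0.00443 to 0.35 over the alternatives). Without replicate 5 of the control FIPs it was -0.12 (limma adjusted p = 0.0615). No genotype difference passed, at -0.02 log2 units in FIPs (limma adjusted p = 0.957) and 0.06 in APCs (limma adjusted p = 0.498).

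Ccl8, which in mice binds CCR8, showed the largest difference between the cell types among the 10 members in both genotypes. It lies on chromosome 11 at 82115185 to 82116799 on the forward strand, 52.2 kb beyond Ccl11. Ccl8 had 3.5, 3.59, 3.7, 3.62 and 3.54 log2 CPM in FIPs labelled transgenic, against 2.41, 2.5, 2.53, 1.63 and 1.86 in APCs labelled transgenic. In control mice it had 3.36, 3.64, 3.75, 3.74 and 3.45 log2 CPM in FIPs, against 2.12, 2.95, 2.86, 2.67 and 3 in APCs. Every FIP library lay above every APC library, and the APC libraries spread more widely. The difference was 1.4 log2 units in mice labelled transgenic (SE 0.18, 95% interval 1.04 to 1.77, limma adjusted p = 1.41e-06), or 2.65-fold, and 0.87 in control mice (95% interval 0.50 to 1.23, limma adjusted p = 0.00043), or 1.83-fold. The difference between these 2 differences was 0.54 log2 units (95% interval 0.02 to 1.05) and did not pass (limma adjusted p = 0.350, unadjusted p = 0.0433). None of the 10 members passed for this interaction in limma, and Ccl8 alone had an unadjusted p under 0.05. Over all genes the interaction called 0% of 17435, although 2388 had an unadjusted p under 0.05.

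Ccl19, a ligand of CCR7 that guides dendritic cells and naive T cells, went the other way. It lies on the reverse strand of chromosome 4, at 42754525 to 42756577, far from the chromosome 11 members. Ccl19 had 1.52, 1.41, 1.63, 1.71 and 0.83 log2 CPM in FIPs labelled transgenic, against 2.6, 2.16, 1.86, 2.05 and 1.88 in APCs labelled transgenic, with no overlap. In control mice it had 1.84, 1.17, 1.3, 0.78 and 1.49 log2 CPM in FIPs, against 2.52, 2.26, 1.88, 1.62 and 2.06 in APCs, where the ranges overlapped. The FIP minus APC difference was -0.69 log2 units in mice labelled transgenic (95% interval -1.13 to -0.25, limma adjusted p = 0.0119) and -0.75 in control mice (95% interval -1.19 to -0.31, limma adjusted p = 0.00606). After quantile normalization the control difference was -0.51 and did not pass (limma adjusted p = 0.0607, range 0.00236 to 0.0607 over the alternatives). The identity of these reads is uncertain, because 52.0% of the 50-base stretches of Ccl19 transcripts also occur in Ccl19-ps1, Ccl19-ps3, Gm12407 or Gm2564. Among the other members, 8 shared no such stretch with another gene and Ccl9 shared 1.97%.

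**Figure D2:**
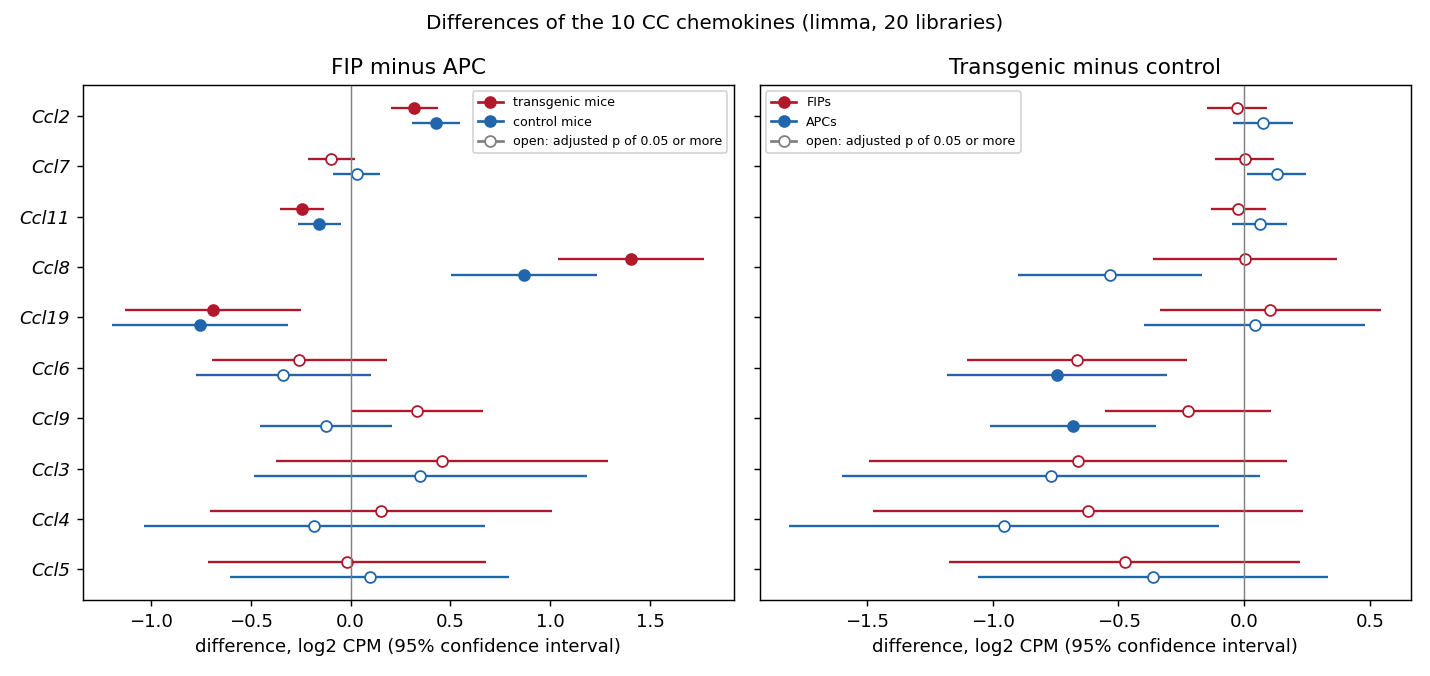
Difference in log2 CPM with its 95% interval (x axis) for each CC chemokine (y axis), for FIPs against APCs in both genotypes and for labelled transgenic against control in both cell types; filled points have an adjusted p under 0.05. Ccl2 and Ccl8 lie right of 0 and Ccl11 and Ccl19 left of 0 in the comparisons of cell types, and Ccl6 and Ccl9 lie left of 0 in the APC genotype comparison.

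The sequence at the start of Ccl8 and of Ccl19 is shown because these members had the largest differences between the cell types. Each window runs from 250 bases before to 50 bases after the annotated start (RefSeq, GRCm38.p6), at chr11:82114935-82115234 on the forward strand for Ccl8 and at chr4:42756316-42756615 on the reverse strand for Ccl19. Capitals mark motif matches.
Ccl8: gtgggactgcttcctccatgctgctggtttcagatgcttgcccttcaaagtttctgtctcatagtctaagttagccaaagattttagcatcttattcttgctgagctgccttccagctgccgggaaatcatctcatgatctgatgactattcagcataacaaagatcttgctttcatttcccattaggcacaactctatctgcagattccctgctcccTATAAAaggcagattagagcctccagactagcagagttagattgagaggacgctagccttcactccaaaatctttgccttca
Ccl19: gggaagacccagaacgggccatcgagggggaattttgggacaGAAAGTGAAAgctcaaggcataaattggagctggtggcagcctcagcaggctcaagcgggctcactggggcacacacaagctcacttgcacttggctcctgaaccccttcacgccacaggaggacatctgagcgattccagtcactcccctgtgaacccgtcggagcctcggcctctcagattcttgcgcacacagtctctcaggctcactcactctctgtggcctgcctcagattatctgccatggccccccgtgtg
The motifs searched on both strands were TATAAA, the NF-kB letters GGG and TTTCC with 2 bases between them, the AP-1 letters TGANTCA, the interferon response letters GAAA repeated after 2 bases, the C/EBP letters TTGCNNAA and the letters TTCNNNGAA of the STAT site. In the Ccl8 window TATAAA begins 32 bases before the start, a sequence that 13.6% of 32851 such windows hold. In the Ccl19 window GAAAGTGAAA begins 208 bases before the start and matches the interferon response letters, which 3.44% of windows hold. The RefSeq start of Ccl19 lies 212 bases inside the GENCODE gene whose position is given above, so this match falls just within that gene. For Ccl8 both annotations give the same start. A match is a description of the letters and does not show a bound site.

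The remaining 5 members, Ccl6, Ccl9, Ccl3, Ccl4 and Ccl5, did not pass between FIPs and APCs in either genotype. In rodents Ccl6 and Ccl9 are ligands of CCR1 made largely by myeloid cells, and Ccl3, Ccl4 and Ccl5 attract monocytes and T cells. Their genes form a second group on chromosome 11, 1409 kb beyond Ccl8. Ccl5 spans 83525778 to 83530518, Ccl9 spans 83572919 to 83578636, Ccl6 spans 83587882 to 83593087 and Ccl3 spans 83647844 to 83649355, all on the reverse strand. Ccl4 follows at 83662584 to 83664683 on the forward strand. Between FIPs and APCs, Ccl6 differed by -0.34 log2 units in control mice (limma adjusted p = 0.197) and by -0.26 in mice labelled transgenic (limma adjusted p = 0.349). For Ccl9 these values were -0.12 (limma adjusted p = 0.548) and 0.33 (limma adjusted p = 0.0977, range 0.0226 to 0.154 over the alternatives).

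Ccl6 and Ccl9 lie 9.25 kb apart and moved with genotype in APCs, so their starts are shown side by side. The windows are chr11:83593038-83593337 for Ccl6 and chr11:83578587-83578886 for Ccl9, both on the reverse strand (RefSeq, GRCm38.p6), with motif matches in capitals.
Ccl6: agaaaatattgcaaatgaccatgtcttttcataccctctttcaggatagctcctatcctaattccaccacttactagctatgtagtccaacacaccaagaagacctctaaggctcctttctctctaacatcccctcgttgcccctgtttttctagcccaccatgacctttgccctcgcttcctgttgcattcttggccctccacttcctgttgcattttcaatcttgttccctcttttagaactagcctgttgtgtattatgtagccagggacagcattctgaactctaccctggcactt
Ccl9: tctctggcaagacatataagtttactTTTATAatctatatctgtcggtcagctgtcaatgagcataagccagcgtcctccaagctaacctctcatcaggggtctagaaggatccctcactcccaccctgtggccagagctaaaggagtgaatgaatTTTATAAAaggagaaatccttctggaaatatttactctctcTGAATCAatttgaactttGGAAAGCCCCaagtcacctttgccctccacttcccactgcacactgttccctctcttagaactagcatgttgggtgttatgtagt
The best local alignment of these windows covers 74 columns, of which 59 are identical (79.7%). No other pair among the 5 windows examined, which include Ccl3, aligned over more than 29 columns. In the Ccl9 window GGAAAGCCCC begins 35 bases before the start and matches the NF-kB letters on the opposite strand, which 1.63% of all windows hold. TGAATCA, which matches the AP-1 letters held by 7.81% of windows, begins 53 bases before the start. TATAAA occurs on the opposite strand 224 bases before the start and, within TTTATAAA, on both strands 94 and 92 bases before it. None of the searched letters occurs in the Ccl6 or Ccl3 window.

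Between genotypes, Ccl6 and Ccl9 were lower in the APCs labelled transgenic, and no member passed in FIPs. In APCs, 2 of 10 members were lower and 0 were higher (limma, adjusted p under 0.05), where 5.91% of tested genes were lower and 2.1% were higher. The same 2 members were those whose groups did not overlap, against 2.92% of all genes. In FIPs 0 of 10 members passed in either direction, where 0.373% of tested genes did, and 1 member, Ccl6, had an unadjusted p under 0.05. No member separated the genotypes of FIPs without overlap, against 2.89% of all genes. The median difference over the members was -0.45 log2 units in APCs, against -0.03 over all tested genes, and -0.13 in FIPs, against 0.01.

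Ccl6 had 4.59, 4.33, 4.46, 4.22 and 3.69 log2 CPM in APCs labelled transgenic, against 4.67, 5.23, 5.25, 4.78 and 5.08 in control APCs. The groups did not overlap, but the highest library labelled transgenic, at 4.59, was close to the lowest control, at 4.67. The difference was -0.74 log2 units (SE 0.21, 95% interval -1.18 to -0.31, limma adjusted p = 0.0387), or 0.597-fold. The call was lost without replicate 2, 3, 4 or 5 of either APC group. These were 8 of 20 fits that each left out 1 library (limma adjusted p between 0.0157 and 0.127 over all 20). Fits without an FIP library left both groups compared intact. Among the fits without an APC library, the call was kept only without replicate 1 of either group. It was also lost with no filter on low genes (0.0572), after quantile normalization (0.0512) and in a fit of the APC libraries alone (0.13), over a range of 0.0186 to 0.13 for these alternatives.

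Ccl9 had 4.6, 4.45, 4.6, 4.36 and 4.06 log2 CPM in APCs labelled transgenic, against 4.7, 5.37, 5.42, 4.85 and 5.14 in control APCs. The groups did not overlap. The difference was -0.68 log2 units (SE 0.16, 95% interval -1.01 to -0.35, limma adjusted p = 0.0207), or 0.623-fold. The call was lost without replicate 5 of the APCs labelled transgenic and without replicate 3 or 5 of the control APCs (limma adjusted p between 0.00673 and 0.0726 over all 20 fits), and in a fit of the APC libraries alone (0.125, range 0.00843 to 0.125 over the alternatives).

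In FIPs, Ccl6 had 4.17, 4.29, 4.52, 3.65 and 3.37 log2 CPM in libraries labelled transgenic, against 4.22, 5.12, 4.92, 4.56 and 4.5 in controls. The groups overlapped, and the difference of -0.66 log2 units (95% interval -1.10 to -0.23) had an unadjusted p of 0.00486 and did not pass over all genes (limma adjusted p = 0.205). Ccl9 had 4.5, 4.81, 4.98, 4.81 and 4.64 log2 CPM in FIPs labelled transgenic, against 4.53, 5.43, 5.17, 4.8 and 4.93 in control FIPs. Its difference was -0.22 log2 units and did not pass (limma adjusted p = 0.696). The genotype differences of the 2 cell types were not shown to differ from each other for Ccl9 (interaction 0.46, limma adjusted p = 0.370) or for Ccl6 (interaction 0.08, limma adjusted p = 0.927).

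Ccl8 differed by -0.53 log2 units between the APC genotypes and did not pass (limma adjusted p = 0.0631). It passed with library weights (limma adjusted p = 0.0357, range 0.0357 to 0.225 over the alternatives), without replicate 1 of the APCs labelled transgenic (0.036) and without replicate 1 of the control APCs (0.0134). In FIPs the Ccl8 difference between genotypes was 0.00 log2 units (95% interval -0.36 to 0.37). Ccl19 differed by 0.04 in APCs and 0.10 in FIPs and passed in neither (limma adjusted p = 0.939 and 0.947).

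Ccl3, Ccl4 and Ccl5 lay near the floor of the table and varied widely within each group. Ccl3 had 0.84, 1.54, 0.56, 1.03 and 0 log2 CPM in FIPs labelled transgenic and 0, 2.28, 1.89, 1.05 and 2.06 in control FIPs. In APCs it had 0, 0.62, 0.47, 0.52 and 0.08 log2 CPM in libraries labelled transgenic and 0.53, 2.17, 1.81, 0.49 and 0.53 in controls. The genotype groups overlapped in both cell types, and the APC difference of -0.77 did not pass (limma adjusted p = 0.235, exact permutation test two-sided, unadjusted p = 0.0952). Ccl4 had 1.84, 2.06, 2.1, 0.84 and 0.08 log2 CPM in FIPs labelled transgenic and 1.27, 2.6, 2.37, 1.91 and 1.88 in control FIPs. In APCs it had 1.7, 1.95, 1.77, 0.74 and 0 in libraries labelled transgenic and 1.98, 3.04, 2.32, 2.07 and 1.53 in controls. The groups overlapped, and its APC difference of -0.96 log2 units did not pass (limma adjusted p = 0.146, exact permutation test two-sided, unadjusted p = 0.0635). Ccl5 had 0.39, 1.34, 0.97, 0.62 and 0.23 log2 CPM in FIPs labelled transgenic and 0, 1.83, 1.41, 0.96 and 1.73 in control FIPs. In APCs it had 1.06, 0.5, 1.53, 0.1 and 0.45 in libraries labelled transgenic and 0.24, 1.5, 1.46, 1.28 and 0.97 in controls. Its groups overlapped in both cell types (limma adjusted p = 0.693 in FIPs and 0.542 in APCs). With 5 libraries against 5, the smallest p this permutation test can give is 0.00794. Since values of 1 CPM or less are listed as 0, a library at 0 understates a difference where it is in the lower group and overstates it where it is in the higher one, as for Ccl3 and Ccl5 in control FIPs.

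Of the 10 members, 8 fell into 2 sets by how they varied among libraries of 1 group. Deviations from the group means of Ccl2, Ccl7 and Ccl11 went together over the 20 libraries (Pearson r = 0.88 for Ccl2 with Ccl7, 0.79 for Ccl2 with Ccl11 and 0.94 for Ccl7 with Ccl11). Those of Ccl3, Ccl4, Ccl5, Ccl6 and Ccl9 went together at r = 0.58 to 0.87. Ccl8 deviated with the second set at r = 0.28 to 0.65 and with the first at r = -0.11 to -0.03. Ccl19 went with neither, at r = 0.09 to 0.20 with the first set and -0.20 to 0.22 with the second. These r are descriptions over libraries that share mice, with no test.

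**Figure D3:**
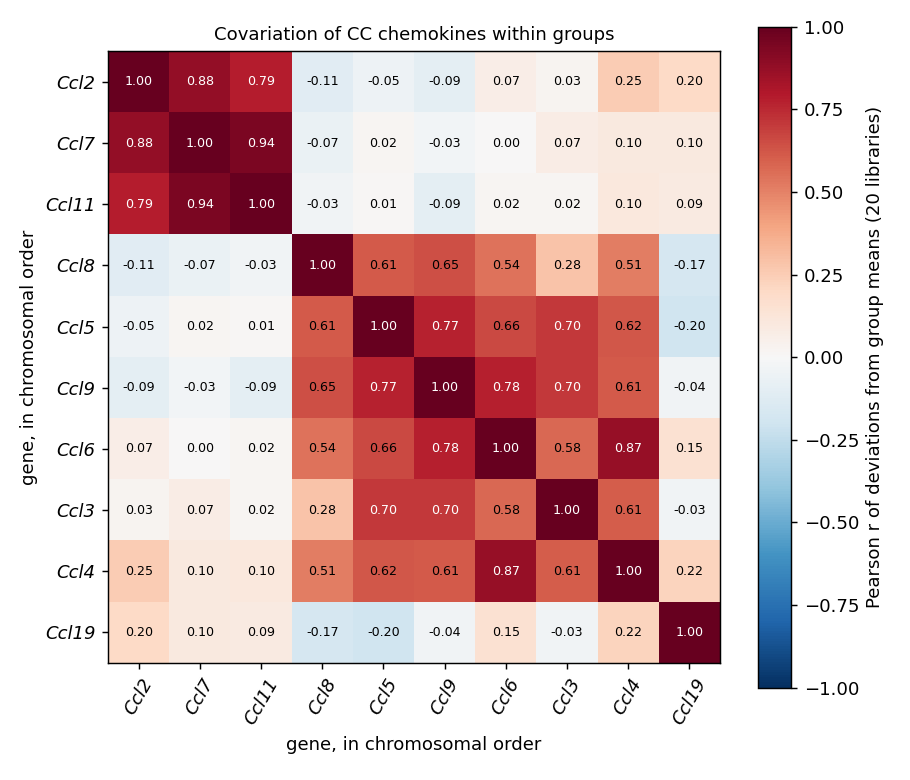
Pearson r (colour and number) of within-group deviations in log2 CPM over the 20 libraries for each pair of CC chemokines. Ccl2, Ccl7 and Ccl11 form one block of high values and Ccl3, Ccl4, Ccl5, Ccl6 and Ccl9 another.

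Macrophage RNA was present in all libraries and moved with the second set, although CD45+ cells had been gated out. The summed level of 17 macrophage markers ran from 195 through a median of 335 to 381 CPM in FIPs labelled transgenic, against 301, 399 and 557 CPM in control FIPs. It ran from 241 through 335 to 404 CPM in APCs labelled transgenic, against 390, 570 and 640 CPM in control APCs. In APCs, 10 of 17 markers were lower in the libraries labelled transgenic (median -0.77 log2 units, 17 of 17 below 0), where 5.91% of tested genes were. That count was 10 with median centring, 7 after quantile normalization and 0 in a fit of the APC libraries alone, which called 0 genes. In FIPs 0 of 17 passed (median -0.51, 17 of 17 below 0), where 0.373% of tested genes did. Fcgr1 was the only one of the 17 listed at 0 in some libraries. The within-group deviation of the mean macrophage level went with that of Ccl6 at r = 0.97, Ccl4 at 0.81, Ccl9 at 0.77, Ccl5 at 0.70, Ccl3 at 0.61 and Ccl8 at 0.52, against 0.11 for Ccl19, -0.04 for Ccl2 and -0.11 each for Ccl7 and Ccl11. These r were also taken without the 2 libraries whose within-group macrophage deviation lay farthest from the median deviation. They were then 0.96 for Ccl6, 0.79 for Ccl9, 0.70 for Ccl5, 0.69 for Ccl4, 0.57 for Ccl3 and 0.49 for Ccl8. For the others they were -0.23 for Ccl19, -0.08 for Ccl11, -0.06 for Ccl2 and -0.005 for Ccl7. The part of this RNA in the Ccl6 and Ccl9 differences was not tested, and in bulk RNA fewer cells of a type and less RNA per cell cannot be told apart.

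**Figure D4:**
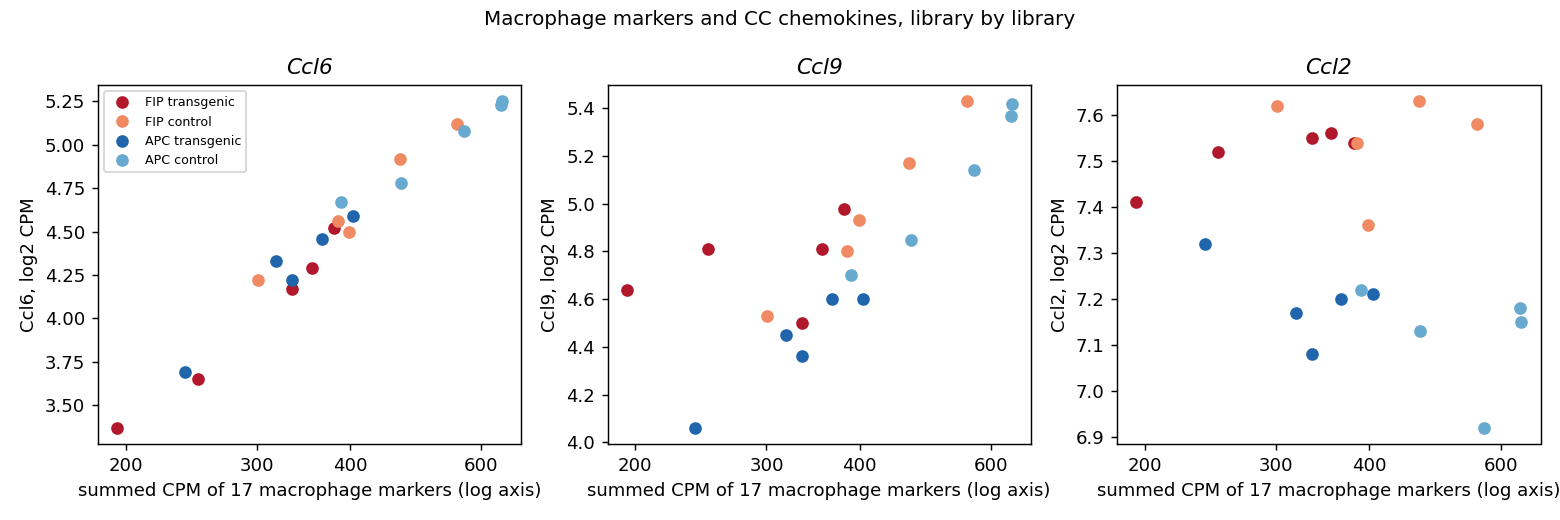
Ccl6, Ccl9 and Ccl2 (y axes, log2 CPM) against the summed level of 17 macrophage markers (x axis, CPM on a log scale), 1 point per library, coloured by group. Ccl6 lies close to a line over all 4 groups, Ccl9 follows more loosely, and Ccl2 separates FIPs from APCs at any macrophage level.

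Markers of other blood cells ranged from absent to abundant. The T and NK cell list summed to 0 to 8.52 CPM, and Gzmb, Prf1, Ncr1 and Klrb1c were at 0 in every library. Of the 5 neutrophil genes, S100a8, S100a9, Ly6g and Cxcr2 were also at 0 in every library. The other, Csf3r, was at 0 in some libraries and at 1.25 to 3.27 CPM in control APCs. Csf3r was lower in FIPs than in APCs by -0.91 log2 units in control mice, which passed. In mice labelled transgenic its difference was -0.29 and did not pass. Genes of dendritic cells and MHC class II summed to 179 to 290 CPM in FIPs labelled transgenic against 230 to 380 CPM in control FIPs. In APCs they summed to 199 to 314 CPM in libraries labelled transgenic against 266 to 427 CPM in controls. Of these 10 genes, Xcr1 was at 0 in every library and Flt3, Clec9a and Cd209a were at 0 in some. The sum does not separate dendritic cell genes from MHC class II genes. Other lists also moved with genotype in APCs. Erythroid genes, 5 of 5 of them lower, summed to 454 to 1040 CPM in libraries labelled transgenic and 802 to 1542 CPM in controls. Also lower were 6 of 6 genes of the FIP gate and interstitial progenitors and 3 of 5 mast cell genes, where 5.91% of tested genes were. With median centring 5 erythroid, 4 FIP gate and interstitial progenitor and 3 mast cell genes were lower, and after quantile normalization 5, 5 and 2. A fit of the APC libraries alone called 0 genes. The part of these lists in the Ccl6 and Ccl9 differences was not tested either.

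The genes with the most similar pattern over the 20 libraries differed between the members. These r span both cell types, so a shared difference between FIPs and APCs contributes to them. The 3 most alike were Rap1b, Gfpt2 and Rcan1 for Ccl2 (r = 0.98, 0.97 and 0.97), and Cxcl1, Rnase4 and Ltbp4 for Ccl7 (0.92, 0.88 and 0.87). For Ccl11 they were Plau, Nfkbiz and Cebpd (0.96, 0.95 and 0.95), and for Ccl8 Syk, Il33 and Cd200 (0.96, 0.96 and 0.95). For Ccl6 they were Csf1r, Lyz2 and Nckap1l (0.98, 0.97 and 0.97), of which Csf1r and Lyz2 are among the 17 macrophage markers. For Ccl9 they were Lilrb4a, Lgals3 and Ucp2 (0.90, 0.89 and 0.89), and for Ccl19 they included Setd3 and Tox (each 0.91). The best r was lowest for Ccl4, Ccl5 and Ccl3, but not for Ccl19, which was scarce too. For Ccl4 the 3 genes were Clec4a3, Tbxas1 and Mrc1 at 0.86 to 0.88. Those for Ccl5 included Il7r at 0.86 and Il10ra at 0.80, and those for Ccl3 were Csf2ra, Tnf and Rgs1 at 0.81.

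Receptors for these ligands divided into signalling receptors, which were scarce, and atypical receptors, which were much higher in FIPs. Of 11 CC receptors, Ccr3, Ccr4, Ccr6 and Ccr8 were at 0 in every library, among them the genes for the receptors of Ccl11 and Ccl8, and 7 were tested. Ccr2, whose product binds Ccl2 and Ccl7, averaged 2.82 ± 0.49 log2 CPM in control FIPs and 3.59 ± 0.59 in control APCs (SD, n = 5 each, limma adjusted p = 0.0369). Of the 17 macrophage markers, 17 were also below 0 in control FIPs against control APCs (median -0.37 log2 units), and 2 passed. In mice labelled transgenic 14 were below 0 and 3 above (median -0.11), and 1 passed. The part of macrophage RNA in the Ccr2 difference was not tested. Of the 7 receptors tested, 1 was higher and 2 were lower in FIPs in each genotype. Over all tested genes 19.6% were higher and 27.9% lower in control mice, and 22.7% and 19% in mice labelled transgenic. The receptor counts are thus near the background. Ccr9 was lower in both, Ccr2 in control mice and Ccr10 in mice labelled transgenic. Ccr9 and Ccr10 lay near the floor, at no more than an estimated 23 and 35 reads in a library. Ccr9 was above 0 in only 11 libraries. The higher one was Ccrl2, an atypical receptor-like protein, at 0.84 log2 units in control mice (limma adjusted p = 0.000372) and 1.29 in mice labelled transgenic (limma adjusted p = 2.4e-06).

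All 3 atypical receptors were higher in FIPs in both genotypes. Ackr2, which scavenges inflammatory CC chemokines, averaged 6.49 ± 0.10 log2 CPM in FIPs labelled transgenic and 3.84 ± 0.18 in APCs labelled transgenic (SD, n = 5 each), and 6.60 ± 0.13 in control FIPs and 4.0 ± 0.40 in control APCs. These differences of 2.65 and 2.60 log2 units passed (limma adjusted p = 1.54e-12 and 2.33e-12). Ackr1, which binds CC and CXC chemokines, differed by 3.68 log2 units in mice labelled transgenic (limma adjusted p = 7.48e-15) and 3.14 in control mice (1.07e-13). Ackr4, which binds Ccl19, Ccl21 and Ccl25, differed by 3.04 log2 units in mice labelled transgenic (4.27e-10) and by 2.55 in control mice (7.52e-09). Between genotypes, Ackr1 was lower in the APCs labelled transgenic, with a difference of -0.57 log2 units (limma adjusted p = 0.0224). The call was lost after quantile normalization (-0.38, limma adjusted p = 0.0775) and in a fit of the APC libraries alone, which called 0 genes. It was kept with median centring (limma adjusted p = 0.0304). Between the genotypes of FIPs, 0 of 7 CC receptors and 0 of 3 atypical receptors passed in limma, with 2 and 0 at an unadjusted p under 0.05. Over all tested genes 0.373% passed there.

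**Figure D5:**
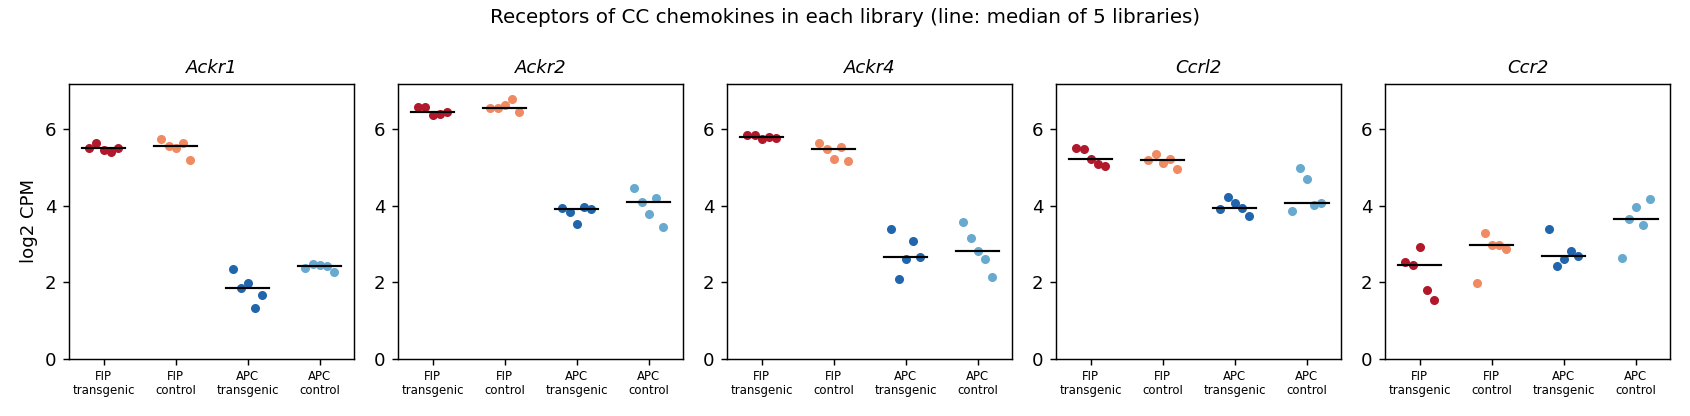
Level of Ackr1, Ackr2, Ackr4, Ccrl2 and Ccr2 (y axis, log2 CPM) in every library, by group, with lines at the group medians. Ackr1, Ackr2 and Ackr4 lie higher in every FIP library than in every APC library.

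Pathways known to induce CC chemokines in stromal cells were read from a list of 28 genes of TNF, interleukin and interferon signalling. The list holds inhibitors such as Nfkbia and Tnfaip3 too, so its counts mix activators and inhibitors. Of the 28 genes, 26 were tested, and Ifng and Il13 were at 0 in every library. In control mice 5 were higher and 8 were lower in FIPs than in APCs, and in mice labelled transgenic 1 was higher and 13 were lower. Over all tested genes 19.6% were higher and 27.9% lower in control mice, so the counts there are near the background, and 22.7% were higher and 19% lower in mice labelled transgenic. The 8 lower in control mice became 3 with libraries centred on their medians and 12 after quantile normalization. Between the genotypes of APCs, 6 were higher and 0 lower: Il1rap at 0.20, Ifngr1 at 0.18, Myd88 at 0.21, Nfkb1 at 0.22, Nfkb2 at 0.28 and Relb at 0.27 log2 units, where 2.1% of all tested genes were higher. That count was 8 with libraries centred on their medians and 5 after quantile normalization, where Myd88 did not pass (limma adjusted p = 0.059). A fit of the APC libraries alone called 0 genes between genotypes, so all of these calls were lost there. In FIPs 0 of 26 passed between genotypes, where 0.373% of tested genes did, and 6 had an unadjusted p under 0.05. Tnf, whose product induces Ccl2, differed by -0.75 log2 units in FIPs (limma adjusted p = 0.434) and by -0.73 in APCs (0.181).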

How the data were processed

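Polyadenylated RNA was sequenced from 20 libraries, 5 in each of 4 groups, each a pool of 2 mice. The authors deposited 1 table of log2 CPM values to 2 decimals, with 1 CPM or less listed as 0. Per the submitters' processing notes, the tools were Trim Galore 0.4.1, HISAT2 2.0.1, featureCounts 1.4.6 and DESeq2 1.6.3, with the genome GRCm38 (mm10). Neither the annotation release nor the strand setting is given in the sources used here.

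The members and the gene lists were chosen with earlier results of these data known. Genes above 0 in at least 5 libraries were tested (17435). The model in limma 3.58.1, run under R 4.3.3, took all 20 libraries and a mean for each group, with a variance trend, 16 residual degrees of freedom, two-sided tests and Benjamini-Hochberg adjustment over all tested genes at 0.05. Intervals are 95%. Exact permutation tests ran in R over all splits of 5 against 5 libraries. Pearson r of within-group deviations came from SciPy 1.17.1. Since pools of a genotype share mice, p-values take as independent what may not be. Low values were whole numbers of reads, within 0.0051 log2 units, for only 72.6 to 80.0% of genes, so no count model was run. Reads per gene are estimates from CPM and depth, and limits on low genes cover counting error only. Names and positions came from GENCODE M21, which matched 54276 of 54304 identifiers, and promoter windows from RefSeq (GRCm38.p6), which held 5 of the 10 members. Named genes were all members, the genes of the listed pathways that passed, and for each member the 3 tested genes with the highest r. Some genes that meet this rule are not reported here, although the counts include them. The procedure was tested on simulated data. The simulated libraries were independent, with normal noise and no floor at 0. That test therefore does not cover shared mice or values at the floor.

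Alternatives were log2(CPM + 1), no filter, a filter of 10 libraries, median centring, quantile normalization, robust variance, library weights, only the groups compared, a replicate block, and each library left out. A replicate block within genotype was added after seeing the data.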

Additional observations from a re-analysis of the deposited data

Results flagged for a closer look

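Among 44 groups of 5 values examined for single libraries that stand apart, 1 did, where chance alone gives about 1 in 20. Ccl2 was lowest in replicate 5 of the FIPs labelled transgenic, at 7.41 log2 CPM against 7.52 in the nearest library, a gap of 0.733 of the range of the group against a limit of 0.71. The same library was also the lowest of its group for Ccl7, at 7.03 log2 CPM, for Ccl11, at 7.33, for Ccl19, at 0.83, for Ccl6, at 3.37, for Ccl3, at 0, for Ccl4, at 0.08, and for Ccl5, at 0.23, so for 8 of 10 members, and it had the lowest summed macrophage level, at 195 CPM. Without it, the FIP minus APC difference of Ccl2 in mice labelled transgenic was 0.35 log2 units (limma adjusted p = 9.93e-05).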

How the results depend on the processing

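No called difference of a member changed direction. Over the fits that left out 1 library each, 986 of 1000 results kept their side of the threshold and 14 did not. Most of the 1000 were not called with all libraries, and many fits left both groups compared intact. That share therefore does not measure how sturdy the calls are. The 14 were 12 lost calls and 2 gained, with 8 of the 12 for Ccl6 and 3 for Ccl9 between the genotypes of APCs. Over the other alternatives 448 of 460 results kept their side. The members called ranged from 3 to 4 for FIPs against APCs in control mice and 0 to 3 for the genotypes of APCs when 1 library was left out, and stayed at 4 for FIPs against APCs in mice labelled transgenic and at 0 for the genotypes of FIPs and the interaction. All genes called ranged from 7599 to 8413, from 6682 to 7461, from 9 to 125 for the genotypes of FIPs, from 181 to 2849 for the genotypes of APCs and from 0 to 331 for the interaction, against 8288, 7275, 65, 1396 and 0 in all libraries. For the genotypes of APCs, 2 members were called, against 1 with no filter, 1 after quantile normalization and 0 with only the groups compared, where 812, 1068 and 0 genes were called; median centring called 2199 genes and library weights 2253. For the genotypes of FIPs, library weights called 271 genes and only the groups compared 36. For the interaction, log2(CPM + 1) called 3 genes, quantile normalization 1 and library weights 176. Median centring moved the share of higher calls for FIPs against APCs to 52.8%, against 41.3% as deposited, in control mice, and to 43.8%, against 54.5%, in mice labelled transgenic; for the genotypes it moved to 51.9%, against 64.6%, in FIPs and to 62.6%, against 26.2%, in APCs. The cause of these shifts was not tested.

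Same-numbered libraries deviated together at r = 0.06 to 0.33 between FIPs and APCs labelled transgenic and 0.04 to 0.27 between control FIPs and APCs, with 3 and 2 of 5 over 0.1 and each library best with its own number in 2 and 3 of 5, so pairing by number was not established, although all 10 same-numbered r were above 0 and mice are shared between pools. The replicate block called 101 genes between the genotypes of FIPs, 1057 between those of APCs and 0 for the interaction, and 4, 5, 0, 3 and 0 members in the 5 comparisons. Ccl9 passed between FIPs and APCs labelled transgenic under it (limma adjusted p = 0.0325), under the block within genotype (0.0226) and with only the groups compared (0.0391), each giving 5 members called. Under the replicate block Ccl4 also passed between the genotypes of APCs (0.0397). The block within genotype, chosen after seeing the data, called Ccl6 between control FIPs and APCs (0.00668), giving 5 members there. Depth limits Ccl3, Ccl4, Ccl5 and Ccl19, none of which exceeded an estimated 64 reads in a library.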

Other observations

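Of 11 other CC ligands listed, Ccl1, Ccl12, Ccl17, Ccl20 and Ccl26 were at 0 in every library and 6 were tested. In control mice, 3 of the 6 were lower in FIPs than in APCs, where 27.9% of tested genes were. They were Ccl24, a second eotaxin, at -0.81 log2 units, Ccl25, a ligand of CCR9, at -0.63, and Ccl27a, a ligand of CCR10, at -0.64. The Ccl24 call was lost after quantile normalization (-0.51, limma adjusted p = 0.0632). Ccl24 and Ccl27a rested on few reads, at most an estimated 27 and 35 in a library. In mice labelled transgenic, Ccl25 at -0.34 and Ccl27a at -0.66 were lower in FIPs, where 19% of tested genes were. Between the genotypes of APCs, Ccl24 was lower in the libraries labelled transgenic, at 0.84 ± 0.35 log2 CPM against 1.65 ± 0.28 in controls (SD, n = 5 each, limma adjusted p = 0.0458). The call was lost after quantile normalization (limma adjusted p = 0.0847) and in a fit of the APC libraries alone, which called 0 genes. Ccr9 was listed at 0 in every control FIP library and averaged 1.08 ± 0.45 log2 CPM in control APCs.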
